A study of Homo sapiens
Mus musculus with 16 samples.

Results

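The 10 genes described here are the core circadian clock genes as transcribed by the tumour cells of a human breast cancer xenograft. They are the activators ARNTL (ENSG00000133794) and CLOCK (ENSG00000134852), the repressors PER1 (ENSG00000179094), PER2 (ENSG00000132326), PER3 (ENSG00000049246), CRY1 (ENSG00000008405) and CRY2 (ENSG00000121671), the nuclear receptors NR1D1 (ENSG00000126368) and NR1D2 (ENSG00000174738), and the output gene DBP (ENSG00000105516). They were taken by Ensembl ID from the human count matrix, 10 of its 58051 listed genes, and all 10 were among the 18131 that passed the filter on low counts.

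MDA-MB-231, a human triple-negative breast cancer line, was grown in the mammary fat pad of Balb/c nude mice, which lack mature T cells. Each of 16 mice received 2 M cells in 50 µl of saline and Matrigel, and its tumour was excised on day 50 and sequenced as 1 paired-end mRNA library. The combination group had nab-paclitaxel at 30 mg/kg on days 15, 22 and 29 together with phenelzine at 40 mg/kg every day from day 15. The nab-paclitaxel group had the first drug alone on the same 3 days, the phenelzine group had the second alone at the same daily dose, and the vehicle group had neither, with 4 mice a group and all injections into the peritoneum. Nab-paclitaxel is albumin-bound paclitaxel, which stabilises microtubules, and phenelzine inhibits monoamine oxidases. The labels give no hour of excision, so treatment and an hour that differed between groups cannot be told apart.

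In a running clock ARNTL, also called BMAL1, pairs with CLOCK, and the pair binds E-box elements and switches on the PER, CRY and NR1D genes and DBP. PER and CRY proteins then inhibit the pair, and the NR1D receptors repress ARNTL. In rhythmic tissues ARNTL transcripts therefore peak when those of PER, NR1D1 and DBP are low, and a shift of phase can move these arms in opposite directions. The comparisons below ask whether the arms moved against each other between treatments. One excision per mouse cannot show a rhythm, and in whole tumours fewer cells of a kind and less RNA per cell cannot be told apart.

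RefSeq places the genes as follows in GRCh38, the assembly also called hg38. PER1 is at chr17:8140472-8152404, PER2 at chr2:238244044-238300065, PER3 at chr1:7784291-7845177, CRY1 at chr12:106991364-107093549 and CRY2 at chr11:45847118-45883244. ARNTL is at chr11:13276652-13387266, CLOCK at chr4:55427903-55546909, NR1D1 at chr17:40092793-40100589, NR1D2 at chr3:23945286-23980617 and DBP at chr19:48630030-48637379. Protein-coding neighbours overlap 4 of them, THRA with NR1D1, TMEM165 with CLOCK, NKIRAS1 with NR1D2 and SPHK2 with DBP. Whether counting used strand is unknown, so reads of these overlapping genes cannot be told apart.

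Human totals ran from 11.1 to 34.5 M counts a library, and the counts of the clock genes from 56 (DBP, vehicle 2) to 4463 (NR1D2, phenelzine 1). Levels below are TMM-scaled CPM of the human counts, which compare a gene between libraries and not 1 gene with another. Combination 1 and 3 and nab-paclitaxel 1 and 4 stood apart from the other 12 libraries on the first principal component of the human genes, which held 48.7% of the variance. Mouse genes took 41.9% to 71.2% of all counts in those 4 libraries and 9.25% to 47.4% in the other 12. Fits were also run with the mouse share as a covariate and without these 4 libraries. The libraries left out were picked by the principal component and not by mouse share. Combination 2, at 47.4%, stayed in while nab-paclitaxel 4, at 41.9%, did not, so leaving them out does not isolate the mouse share. Markers of the tumour line and of mouse cells, and 30 further clock genes, were not analysed here, because the reference pairs 0 of their symbols with Ensembl IDs, so the tumour label was not checked against markers.

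Among the repressors, PER2 and PER3 were above every vehicle tumour in all tumours given phenelzine, with or without nab-paclitaxel. The share of all genes above vehicle in both groups at once was not counted, and shares for each group are given below. PER2, whose protein inhibits the ARNTL and CLOCK pair, stood at 39.8, 15.5, 39.5 and 22.2 CPM in combination 1 to 4, 21.9, 12.8, 12.9 and 21.6 CPM in nab-paclitaxel 1 to 4, 21.7, 18.2, 20.1 and 14.2 CPM in phenelzine 1 to 4, and 13.6, 10.2, 10.7 and 11.4 CPM in vehicle 1 to 4. The nab-paclitaxel group overlapped vehicle, and its high libraries were the pair that stood apart. Mean PER2 was 29.2 ± 12.3 CPM with the combination, 17.3 ± 5.19 with nab-paclitaxel, 18.5 ± 3.23 with phenelzine and 11.4 ± 1.51 with vehicle (SD, n = 4 each).

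PER3, a period gene whose loss has milder effects on the mouse clock than that of the other two, stood at 41.1, 16.5, 31.6 and 20.9 CPM with the combination, 12.8, 14.9, 13.96 and 16.6 CPM with nab-paclitaxel, 23.4, 18.2, 17.7 and 14.95 CPM with phenelzine, and 14.2, 11.3, 14.5 and 14.1 CPM with vehicle. Its nab-paclitaxel and vehicle libraries overlapped. PER1, which glucocorticoid and cAMP signals can also induce directly, stood at 104.2, 34.7, 52.3 and 27.3 CPM with the combination, 23.2, 16.6, 18.9 and 18.4 CPM with nab-paclitaxel, 38.2, 29.5, 35.96 and 34.9 CPM with phenelzine, and 34.1, 27.9, 29.5 and 30.3 CPM with vehicle. All 4 nab-paclitaxel libraries were below every library of the other groups in PER1, and the combination overlapped phenelzine and vehicle. The share of all genes with nab-paclitaxel below all other groups was not counted.

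**Figure D1:**
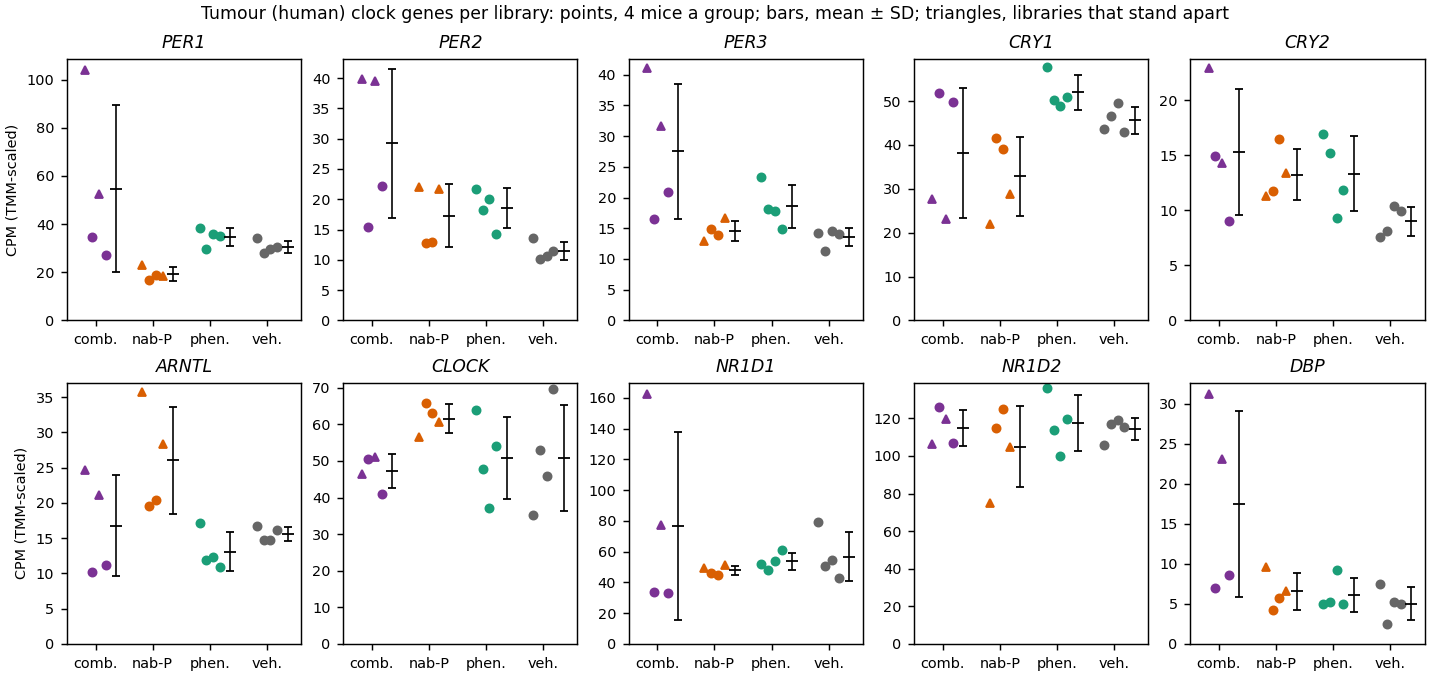
TMM-scaled CPM (vertical axes) of the 10 clock genes by group; points are the 16 tumour libraries, triangles the 4 that stood apart, and bars the mean ± SD of 4 mice. PER2 and PER3 lie above vehicle in all 8 tumours given phenelzine, PER1 is lowest with nab-paclitaxel (16.6 to 23.2 CPM), and DBP is high in combination 1 and 3 (31.2 and 23.1 CPM).

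The cryptochrome genes had other orders. CRY1, a strong repressor of the ARNTL and CLOCK pair, stood at 27.6, 51.9, 23.2 and 49.9 CPM with the combination, 21.9, 41.5, 38.99 and 28.9 CPM with nab-paclitaxel, 57.8, 50.4, 48.97 and 50.9 CPM with phenelzine, and 43.6, 46.7, 49.6 and 42.9 CPM with vehicle. Its 4 lowest libraries were the 4 that stood apart, and all nab-paclitaxel libraries lay below all vehicle libraries. CRY2, the second cryptochrome, averaged 15.3 ± 5.75 CPM with the combination, 13.2 ± 2.32 with nab-paclitaxel, 13.3 ± 3.42 with phenelzine and 8.99 ± 1.35 with vehicle (SD, n = 4 each). In CRY2 nab-paclitaxel did not overlap vehicle (lowest 11.3 CPM against a highest of 10.4 CPM), and the other 2 treated groups did.

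On the activator side, ARNTL was high with nab-paclitaxel alone. It stood at 24.6, 10.2, 21.1 and 11.2 CPM with the combination, 35.7, 19.6, 20.5 and 28.4 CPM with nab-paclitaxel, 17.1, 11.9, 12.4 and 10.96 CPM with phenelzine, and 16.7, 14.7, 14.8 and 16.1 CPM with vehicle. The combination was split, with combination 1 and 3 above every vehicle library and combination 2 and 4 below every one. CLOCK, the partner of ARNTL, averaged 47.3 ± 4.67 CPM with the combination, 61.5 ± 3.99 with nab-paclitaxel, 50.7 ± 11.3 with phenelzine and 50.9 ± 14.5 with vehicle (SD, n = 4 each). All combination libraries lay below all nab-paclitaxel libraries in CLOCK, within the span of the vehicle libraries.

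The receptor gene NR1D1 (REV-ERB alpha) stood at 162.5, 33.8, 77.1 and 33.2 CPM with the combination, and averaged 47.8 ± 2.80 CPM with nab-paclitaxel, 53.7 ± 5.57 with phenelzine and 56.8 ± 15.9 with vehicle (SD, n = 4 each). Combination 2 and 4 had the lowest NR1D1 of the 16 libraries, and combination 1 the highest. NR1D2 (REV-ERB beta), its paralogue, averaged 114.7 ± 9.73 CPM with the combination, 104.8 ± 21.6 with nab-paclitaxel, 117.4 ± 14.9 with phenelzine and 114.3 ± 5.79 with vehicle (SD, n = 4 each), and all groups overlapped. DBP, a transcription factor gene driven from E-boxes and a common readout of clock output, stood at 31.2, 7.01, 23.1 and 8.65 CPM with the combination, 9.63, 4.22, 5.67 and 6.67 CPM with nab-paclitaxel, 4.99, 5.27, 9.29 and 5.03 CPM with phenelzine, and 7.45, 2.46, 5.28 and 4.94 CPM with vehicle. Its high combination libraries were the pair that stood apart, and combination 2 lay within the range of vehicle.

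Given both drugs, tumours had more PER2 than with vehicle. PER2 rose 2.55-fold, a log2 difference of 1.35 with an SE of 0.29 (edgeR adjusted p = 0.0471), the only 1 of the 10 clock genes past the threshold of 0.05, where 0.734% of all human genes passed. PER3 (log2 fold change 1.02, SE 0.23, edgeR adjusted p = 0.0530), DBP (1.79, SE 0.46, 0.0720), CRY2 (0.76, SE 0.26, 0.120) and PER1 (0.84, SE 0.30, 0.135) did not pass. Nor did ARNTL (0.10), CLOCK (-0.11), CRY1 (-0.26), NR1D1 (0.43) or NR1D2 (0.01). An unadjusted p under 0.05 was reached by 5 of the 10, against 22.4% of all genes. PER2 and PER3, 2 of the 10, did not overlap between the groups, against 11.2% of all genes. The median log2 fold change was 0.59 over the clock genes and -0.00 over all genes tested.

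With 1 library left out, the PER2 call came and went while its log2 fold change stayed between 1.18 and 1.58. Leaving out combination 2 or combination 4 kept PER2 past the threshold (edgeR adjusted p = 0.00930 and 0.0366). These fits called 1388 and 557 genes. Leaving out combination 1, combination 3 or any vehicle library ended the call. PER2 then had an edgeR adjusted p between 0.113 and 0.143 and log2 fold changes between 1.18 and 1.46. Few genes at all were called in those fits, 10 and 2 without combination 1 and 3, and 1, 8, 4 and 4 without vehicle 1 to 4. The fit of all libraries called 133. Without the 4 libraries that stood apart PER2 was at 0.72 (SE 0.20, edgeR adjusted p = 0.189), PER3 at 0.47, DBP at 0.63 and PER1 at 0.02 on the log2 scale. ARNTL was then at -0.54 (SE 0.18, edgeR adjusted p = 0.286) and NR1D1 at -0.76 (SE 0.21, 0.190), opposite in sign to the values from all libraries. With combination 1 alone left out, PER1 was at 0.33 and NR1D1 at -0.23. With the mouse share of counts as a covariate PER2 was at 0.89 (SE 0.31, edgeR adjusted p = 0.652).

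With phenelzine alone 0 of the 10 clock genes passed in edgeR, DESeq2 or voom, which called 0%, 0.0221% and 0% of all human genes. PER2 (log2 fold change 0.69, SE 0.28) and CRY2 (0.57, SE 0.25) were the 2 of the 10 with an unadjusted p under 0.05, against 2.35% of all genes. PER3 was at 0.46 (SE 0.23), PER1 at 0.18 (SE 0.30) and ARNTL at -0.25 (SE 0.27). PER2 and PER3 did not overlap vehicle, 2 of the 10 against 2.89% of all genes.

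With nab-paclitaxel alone, again compared with vehicle, 0 of the 10 passed in edgeR, DESeq2 or voom, which called 0.165%, 7.95% and 3.3% of all genes. The log2 fold change of ARNTL was 0.74 (SE 0.27, edgeR adjusted p = 0.154), that of PER1 -0.66 (SE 0.30, 0.232), CRY2 0.56 (SE 0.25, 0.233), PER2 0.59 (SE 0.28, 0.253) and CRY1 -0.48 (SE 0.24, 0.283). ARNTL and PER1 thus lay on opposite sides of vehicle, while ARNTL and PER2 lay on the same side. ARNTL, PER1 and CRY2, 3 of the 10, had an unadjusted p under 0.05, against 20.3% of all genes. Groups did not overlap in 4 of the 10 (ARNTL and CRY2 higher, PER1 and CRY1 lower), against 15.1% of all genes. Without the libraries that stood apart PER1 was at -0.78 (SE 0.15, edgeR adjusted p = 0.0847), ARNTL at 0.36 (SE 0.17, 0.473) and PER2 at 0.16 (SE 0.20, 0.830).

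**Figure D2:**
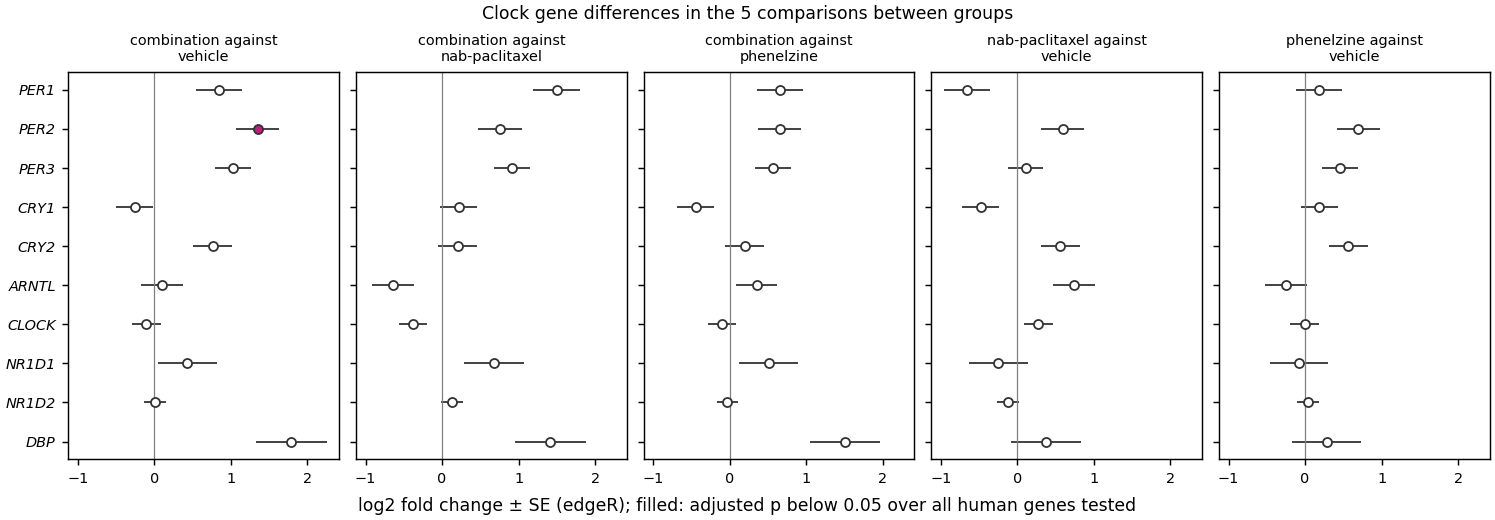
Log2 fold change ± SE (horizontal axes, edgeR fit of all 16 libraries) of the 10 clock genes in the 5 comparisons between groups; a filled point passed the adjusted threshold. The filled point is PER2 in the combination against vehicle (1.35), and ARNTL lies left of 0 in the combination against nab-paclitaxel (-0.64) and right of 0 in nab-paclitaxel against vehicle (0.74).

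In the combination against nab-paclitaxel, PER1 had the largest difference of the 10 clock genes. Its level was 2.83 times as high with the combination as with nab-paclitaxel, a log2 fold change of 1.5 (SE 0.31), with rank 4 by p among 18131 genes and an edgeR adjusted p of 0.867. PER3 was at 0.91 (SE 0.23), PER2 at 0.76 (SE 0.28), DBP at 1.42 (SE 0.46) and ARNTL at -0.64 (SE 0.27), so that the period genes and ARNTL lay on opposite sides. These 5 of the 10 had an unadjusted edgeR p under 0.05, against 2.94% of all genes. In edgeR and voom 0 of the 10 passed the adjusted threshold, and in DESeq2 1 did, PER1 (DESeq2 adjusted p = 0.00537). Of all genes edgeR called 0.00552%, voom 0% and DESeq2 0.0552%. PER1 (higher) and CLOCK (lower), 2 of the 10, did not overlap between the groups, against 1.54% of all genes. Without the libraries that stood apart PER1 was at 0.80 (SE 0.17, edgeR adjusted p = 0.398) and ARNTL at -0.90 (SE 0.20, 0.436).

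In the combination against phenelzine, the differences of the period genes were near 0 once the libraries that stood apart were left out. In log2 fold change DBP was at 1.5 (SE 0.46, edgeR adjusted p = 0.0840), PER2 at 0.65 (SE 0.28, 0.184), PER3 at 0.56 (SE 0.23, 0.169) and PER1 at 0.65 (SE 0.30, 0.209), the 4 of the 10 with an unadjusted p under 0.05, against 23% of all genes. In edgeR 0 of the 10 passed, against 2.27% of all genes, and in voom 0, against 0.695%. In DESeq2 1 passed, DBP (DESeq2 adjusted p = 0.0154), a share of the clock genes close to the 10.1% of all genes that DESeq2 called. The groups overlapped in every clock gene, while 10.9% of all genes did not overlap. Without the libraries that stood apart, 2 of them in the combination group, PER1 was at -0.16, PER2 at 0.02, PER3 at 0.01 and DBP at 0.35, and NR1D1 was at -0.68 (SE 0.21, edgeR adjusted p = 0.181).

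Averaged over both states of nab-paclitaxel, the period genes had positive and ARNTL a negative difference with phenelzine, and no clock gene passed. The log2 fold change was 0.84 for PER1 (SE 0.21), 0.73 for PER2 (SE 0.20), 0.69 for PER3 (SE 0.16), 0.85 for DBP (SE 0.32), 0.38 for CRY2 (SE 0.18) and -0.44 for ARNTL (SE 0.19). These 6 of the 10 had an unadjusted edgeR p under 0.05, against 2.2% of all genes. The PER1 average joined unlike values. It was 0.18 (SE 0.30) for phenelzine alone against vehicle and 1.5 (SE 0.31) for the combination against nab-paclitaxel. Ranked by p, PER3, PER1 and PER2 were at 5, 9 and 17 of 18131 genes. Their edgeR adjusted p was 1.0 all the same, 0 of the 10 passed in edgeR, DESeq2 or voom, and these called 0%, 0.0441% and 0% of all genes. All 10 overlapped between the 8 tumours with phenelzine and the 8 without, as did all but 0.0165% of genes. Without the libraries that stood apart PER1 was at 0.49 (SE 0.10), PER2 at 0.63 (SE 0.14), PER3 at 0.42 (SE 0.13), CRY1 at 0.26 (SE 0.07) and ARNTL at -0.58 (SE 0.12), the 5 of the 10 then with an unadjusted p under 0.05, against 5.62% of all genes in that fit.

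Averaged over both states of phenelzine, PER2 rose with nab-paclitaxel, with an average log2 difference of 0.62 and an SE of 0.20 (edgeR adjusted p = 0.0441), the only 1 of the 10 past a threshold that 17.3% of all genes passed. DBP (0.94, SE 0.32, edgeR adjusted p = 0.0568), ARNTL (0.55, SE 0.19, 0.0622) and CRY1 (-0.46, SE 0.17, 0.0740) did not pass, and with PER2 made up the 4 of the 10 with an unadjusted p under 0.05, against 34.8% of all genes. All 10 overlapped between the 8 tumours with nab-paclitaxel and the 8 without, and 2.05% of genes did not. Without the libraries that stood apart PER2 was at 0.09 (SE 0.14, edgeR adjusted p = 0.808), and PER1 passed instead, at -0.47 (SE 0.10, edgeR adjusted p = 0.0472), in a fit that called 1.66% of all genes. Of the tumours with nab-paclitaxel, that fit held only nab-paclitaxel 2 and 3 and combination 2 and 4. With 1 library left out, PER2 still passed without nab-paclitaxel 2 or 3 or combination 2 or 4 (edgeR adjusted p of 0.0275, 0.0353, 0.00798 and 0.0313). Each of the other 12 ended the call when left out, with edgeR adjusted p up to 0.0965. Over the 16 fits with 1 library left out its log2 difference ran from 0.55 to 0.74.

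The interaction asks whether 1 drug changed a clock gene differently in the presence of the other. In edgeR, DESeq2 and voom 0 of the 10 passed, and these called 0%, 0.0607% and 0% of all genes. PER1 was the 1 of the 10 with an unadjusted p under 0.05 (interaction 1.32, SE 0.42), against 3% of all genes. Nab-paclitaxel gave PER1 a log2 fold change of 0.65 on top of phenelzine and of -0.66 on its own. The interaction was 0.62 (SE 0.20, edgeR adjusted p = 0.642) without the libraries that stood apart.

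A ratio of 2 genes within a library does not depend on how libraries are scaled. Each clock gene was therefore divided by ARNTL, a choice made after the values were seen, so the ratios are given with no test. PER2 to ARNTL was 1.62, 1.52, 1.87 and 1.98 in combination 1 to 4, 0.614, 0.651, 0.629 and 0.762 in nab-paclitaxel 1 to 4, 1.27, 1.53, 1.62 and 1.295 in phenelzine 1 to 4, and 0.814, 0.690, 0.722 and 0.706 in vehicle 1 to 4. The lowest of the 8 tumours with phenelzine was 1.27 and the highest of the 8 without it 0.814. The 4 libraries that stood apart lay near the others of their own group in this ratio.

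**Figure D3:**
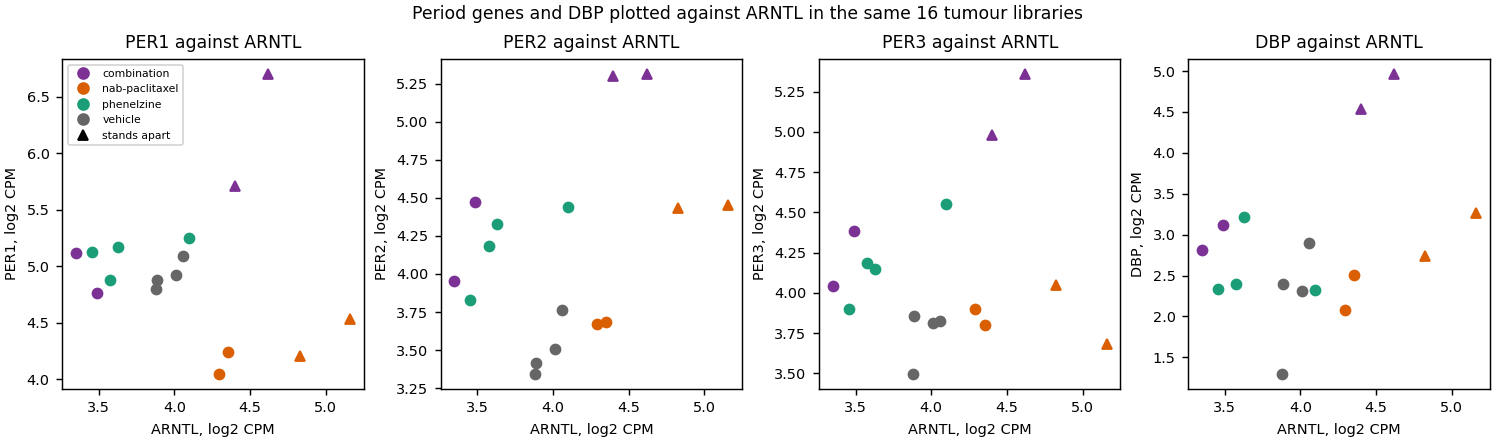
PER1, PER2, PER3 and DBP (vertical axes) against ARNTL (horizontal axes), all in log2 CPM, in the 16 libraries coloured by group, with triangles for the 4 libraries that stood apart. Neither PER2 nor ARNTL alone separates the tumours with phenelzine (combination and phenelzine) from those without (nab-paclitaxel and vehicle), while the ratio of PER2 to ARNTL is at least 1.27 with phenelzine and at most 0.814 without. This ratio was chosen after the values were seen.

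PER3 to ARNTL averaged 1.66 ± 0.153 with the combination, 0.597 ± 0.174 with nab-paclitaxel, 1.42 ± 0.0743 with phenelzine and 0.868 ± 0.0885 with vehicle (SD, n = 4 each). PER1 to ARNTL averaged 3.14 ± 0.858 with the combination, 0.767 ± 0.140 with nab-paclitaxel, 2.70 ± 0.427 with phenelzine and 1.95 ± 0.0798 with vehicle (SD, n = 4 each). The 3 period genes, of 9 clock genes, had higher ratios in all 8 tumours with phenelzine than in all 8 without. Of all genes, 0.165% (30 of 18130) were higher in this way. ARNTL was chosen with its own lower level with phenelzine known. The split therefore restates the period gene and ARNTL differences given above and is no separate support for them. In the 12 other libraries the tumours with and without phenelzine did not overlap in 4 of the 9, the period genes and CRY1, against 3.6% of genes. Nab-paclitaxel separated 0 of the 9, against 0.612% of genes higher and 0.276% lower.

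Between single groups, the combination lay above vehicle without overlap in 4 of 9 ratios, PER1, PER2, PER3 and DBP, against 6.35% of genes. Phenelzine lay above vehicle in 5 of 9, the period genes, CRY1 and CRY2, against 5.33% of genes. The combination lay above nab-paclitaxel in 5 of 9, the period genes, NR1D1 and DBP, against 10.8% of genes, and in 0 of 9 did it separate from phenelzine (3.2% of genes higher, 1.75% lower). Nab-paclitaxel lay below vehicle in 5 of 9 ratios, PER1, PER3, CRY1, NR1D1 and NR1D2, against 39.8% of genes, a share close to that of genes at large.

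DBP to ARNTL was 1.27, 0.688, 1.10 and 0.771 in combination 1 to 4, and ran from 0.215 to 0.277 with nab-paclitaxel, 0.292 to 0.751 with phenelzine and 0.167 to 0.447 with vehicle. NR1D1 to ARNTL averaged 4.13 ± 1.67 with the combination, 1.93 ± 0.437 with nab-paclitaxel, 4.25 ± 1.05 with phenelzine and 3.63 ± 0.874 with vehicle (SD, n = 4 each), and its highest nab-paclitaxel library, at 2.34, lay below every library of the other groups. The share of all genes whose ratio did so was not counted. CRY1 to ARNTL split the combination, at 5.10 and 4.45 in combination 2 and 4 and at 1.12 and 1.10 in combination 1 and 3.

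**Figure D4:**
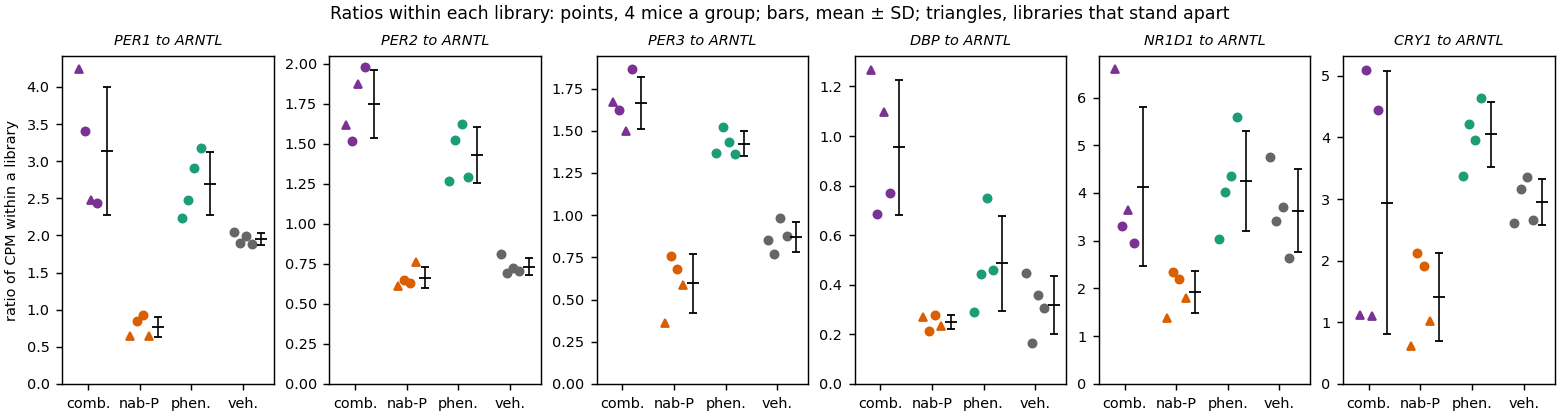
Ratio of the CPM of 6 clock genes to that of ARNTL within each library (vertical axes) by group; points are libraries, triangles the 4 that stood apart, bars the mean ± SD of 4 mice. The PER2 and PER3 ratios of all 8 tumours with phenelzine (at least 1.27 and 1.36) lie above those of all 8 without it (at most 0.814 and 0.982), and CRY1 is split within the combination. ARNTL was chosen as the divisor after the values were seen.

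Phase differences between mice could move the E-box genes together and against ARNTL from tumour to tumour. This was examined as deviations of log2 CPM from the group mean in the 12 libraries that did not stand apart, for all 45 pairs of clock genes. In 0 of the 45 pairs did the exact permutation test within groups (two-sided) pass adjustment over the pairs, with a lowest adjusted p of 0.299, and 6 pairs had an unadjusted p under 0.05. The median r of the 45 pairs was 0.17. Deviations of pairs of other genes were not computed, so whether these values exceed those of genes at large is not known. PER2 and PER3 had a Pearson r of 0.81 (exact permutation p = 0.0304, adjusted 0.301), a Spearman rho of 0.71 (exact permutation p = 0.0560), and an r of 0.59 without the 2 libraries farthest in PER2. PER1 had r = 0.06 with PER2 and r = 0.06 with PER3 (exact permutation p = 0.877 and 0.874). Without the 2 libraries farthest in PER1 these were 0.70 and 0.50.

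PER2 and PER3 did not deviate against ARNTL within groups. PER3 and ARNTL had r = 0.83 (exact permutation p = 0.01997, adjusted 0.299), rho = 0.72 (exact permutation p = 0.0451), and r = 0.57 without the 2 farthest libraries. PER2 and ARNTL had r = 0.74 (exact permutation p = 0.0334, adjusted 0.301), rho = 0.86 (exact permutation p = 0.00564), and r = 0.69 without the 2 farthest. The other 3 pairs with an unadjusted p under 0.05 all held NR1D2. It deviated with CRY2 (r = 0.86, exact permutation p = 0.0135, adjusted 0.299; rho = 0.90, p = 0.0122; r = 0.77 without the 2 farthest libraries). The same held for CLOCK (r = 0.74, exact permutation p = 0.0165, adjusted 0.299; rho = 0.66, p = 0.0556; r = 0.90) and CRY1 (r = 0.67, exact permutation p = 0.0464, adjusted 0.324; rho = 0.54, p = 0.0929; r = 0.37). NR1D1 and its target ARNTL had r = -0.01 and rho = 0.02 (exact permutation p = 0.972 and 0.966). The average phenelzine differences of PER2 and ARNTL thus had opposite signs, while their deviations within groups had the same sign.

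**Figure D5:**
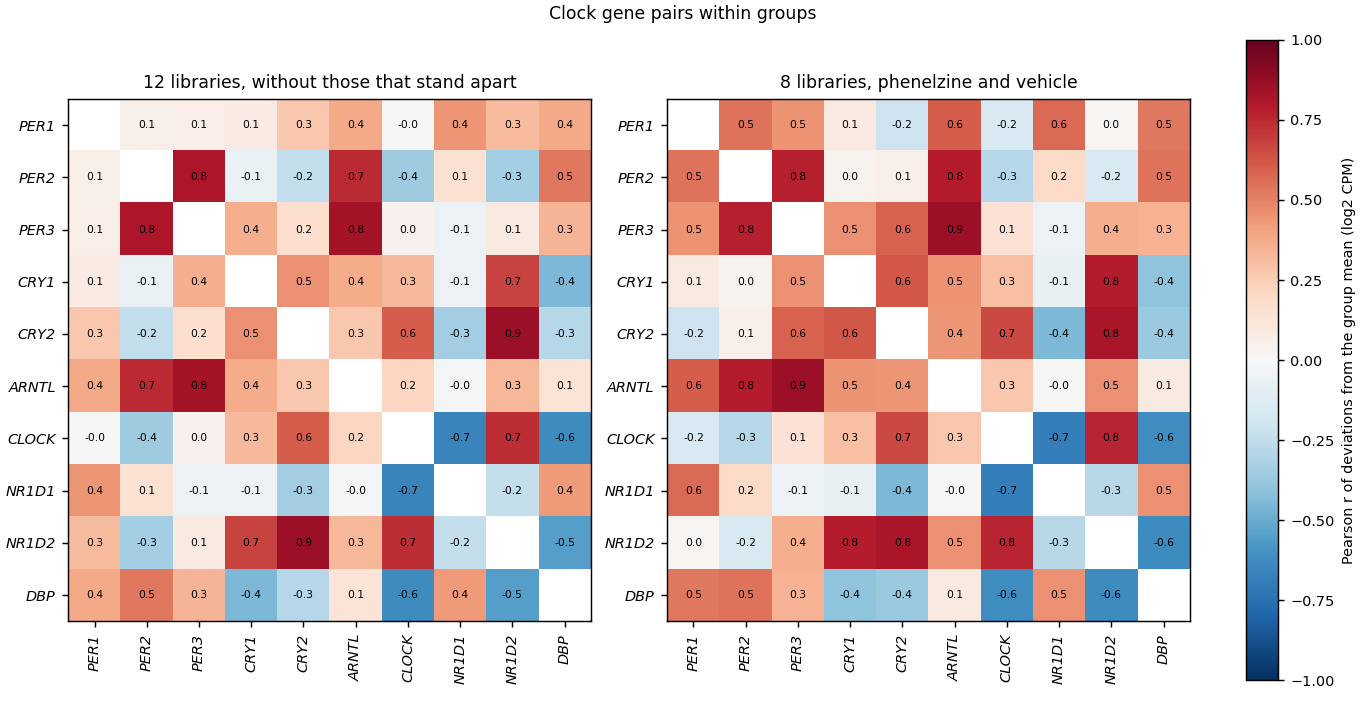
Pearson r of deviations of log2 CPM from the group mean for all 45 pairs of clock genes, in the 12 libraries that did not stand apart (left) and in the 8 phenelzine and vehicle libraries (right); red is positive and blue negative. PER2 and ARNTL are positive in both (0.74 and 0.78), and 0 pairs pass adjustment over the 45.

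Within the combination group, combination 1 and 3 were higher than combination 2 and 4 in PER1, PER2, PER3, DBP, NR1D1 and ARNTL and lower in CRY1. Their mouse shares were 71.2% and 55.9%, against 47.4% and 18.6% in combination 2 and 4, and the part of the mouse cells in these levels was not tested. Over all 16 libraries DBP and PER3 ranked 6 and 7 among 18130 human genes in likeness to PER2 (Pearson r of log2 CPM 0.88 and 0.87). The other clock genes ranked from 2455 (PER1) to 14853 (CRY1, r = -0.59) in likeness to PER2. PER2 and DBP ranked 2 and 4 in likeness to PER3 (0.87 and 0.82), and the other clock genes from 11 (PER1) to 12857 (CRY1). These ranks are descriptions, since the 4 libraries that stood apart form a cluster. Genes outside the clock genes that ranked near PER2 or PER3 carry no symbol here and are not named.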

How the data were processed

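The authors deposited 2 matrices of whole-number counts per Ensembl gene, 1 human and 1 mouse, over 16 libraries. The submitters' processing notes list, with no role or order, Trimmomatic 0.36, HISAT2 2.04, Picard, StringTie, edgeR, hg38 and mm10. The division of reads between species, the annotation and the use of strand were not stated in any source at hand; a wrong division would move reads between tumour and host. Groups came from the sample titles. The 10 members were paired with symbols by the rule that defines them, and all were to be named; other genes only where a table pairs their ID with a symbol, which none does. Members, lists, comparisons and alternatives were chosen with earlier results of these data known.

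All human genes were fitted together in R 4.3.3 with edgeR 4.0.16: minimum count 10, TMM, 1 mean per group (12 residual degrees of freedom), quasi-likelihood test, Benjamini-Hochberg adjustment over 18131 genes. The SE is the absolute log2 fold change over the root of F. Alternatives used DESeq2 1.42.0 and voom with quality weights (limma 3.58.1). Log2 CPM had a prior count of 2. On simulated data, for nab-paclitaxel against vehicle, the fit recovered 30% of 2-fold and 70% of 4-fold changes (50 genes each). Of its 141 calls 6 were false. The labels imply 1 mouse a library; p-values measure the spread between these libraries. Libraries of a group differed beyond sampling noise (chi-square per degree of freedom at least 43.8).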

Additional observations from a re-analysis of the deposited data

Results flagged for a closer look

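Of 40 sets of 4 libraries (10 genes in 4 groups), 2 held a library far from the other 3, and chance flags about 1 in 20. PER3 stood at 11.3 CPM in vehicle 2, below the other vehicle libraries at 14.1 to 14.5 CPM, and this library had the highest mouse share of its group, 37.8%; the part of that share was not tested for this value. DBP stood at 9.29 CPM in phenelzine 3, above the other phenelzine libraries at 4.99 to 5.27 CPM. Without phenelzine 3 the log2 fold change of DBP in phenelzine against vehicle was 0.02, against 0.29 with all libraries.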

How the results depend on the processing

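Counts here are clock genes past the adjusted threshold, of 10, with the share of all genes past it in brackets. For the combination against vehicle 1 (0.734%) became 4 in DESeq2 (8.68%) and 0 in voom (0.612%), with the 4 libraries that stood apart removed (0.114%), with the mouse share in the model (0.011%), with a replicate block (0.0552%) and when just these 2 groups were fitted (0%). It ran from 0 to 5 with 1 library left out (0.00536% to 7.39%). For the average nab-paclitaxel effect 1 (17.3%) became 4 in DESeq2 (24.5%), 0 in voom (12.6%), with no filter on low counts (6.71%) and with the mouse share in the model (0.188%), and 3 with a replicate block (15.6%). It ran from 0 to 5 with 1 library left out (10.02% to 26.1%). The combination's 0 against nab-paclitaxel and its 0 against phenelzine each became 1 in DESeq2 (0.0552% and 10.1%), and the second ran from 0 to 3 with 1 library left out (0.0375% to 7.92%). In the other 4 comparisons the count was 0 in every alternative run. Same-numbered libraries of different groups deviated over genes with r from -0.432 to 0.569. Libraries of different numbers were not compared, so these values do not decide whether the replicate numbers pair the samples. For clock gene pairs 0 became 6 over all 16 libraries, where the median r of the 45 pairs was 0.41, against 0.17 over the 12. Pairs of genes at large were not computed. Of 1490 recomputed fold changes, 106 of genes not called changed sign, 27 lost a call and 33 gained one; 0 called values changed sign. With 4 mice a group small changes, 2-fold ones among them, are poorly resolved, and a gene that did not pass may still have changed. The causes were not tested.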
